A study of Rattus norvegicus with 325 samples.

Results

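Bdh1, Oxct1 and Acat1 encode the enzymes with which muscle burns ketone bodies. They were followed across 4 skeletal muscles of ageing rats, as the 3 lines with these symbols among the 17315 distinct gene symbols of the count files, and each symbol stood on 1 line. The libraries were bulk RNA-seq of the diaphragm, gastrocnemius, soleus and tibialis anterior of male Sprague Dawley rats, an outbred stock, aged 6, 9, 12 and 18 months and then 21, 24 and 27 months. There were 28 combinations of muscle and age, each of 9 to 13 libraries, and 325 libraries in all, with 17.6 to 85.3 M counts each. The libraries of one combination came from separate animals according to the study's methods, and which libraries of different muscles shared an animal is not given in the labels. All animals of one age were collected on a single day, so age and collection day cannot be told apart in any comparison with 6 months.

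Ketone bodies are made in liver mitochondria during fasting and reach muscle through the blood as 3-hydroxybutyrate and acetoacetate. In muscle mitochondria BDH1 oxidizes 3-hydroxybutyrate to acetoacetate, OXCT1 moves coenzyme A from succinyl-CoA onto acetoacetate, and ACAT1 splits the resulting acetoacetyl-CoA into acetyl-CoA for the citric acid cycle. OXCT1 is the step that hepatocytes lack, and ACAT1 also serves isoleucine breakdown and, in liver, ketone synthesis. Slow oxidative muscle is known to use more ketone bodies than fast glycolytic muscle. The soleus is mostly slow, the tibialis anterior and gastrocnemius are mostly fast, and the diaphragm is mixed and active with every breath.

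The sequence in front of each gene is shown because Bdh1 and Oxct1 fell together in the soleus, as described further on. The 250 bases upstream of the annotated start were taken from RefSeq, rat build GRCr8, which is later than the build used for the counts. They lie at chr11:82842637-82842886 on the minus strand for Bdh1, at chr2:54963714-54963963 on the plus strand for Oxct1 and at chr8:62905043-62905292 on the minus strand for Acat1. They are written 5′ to 3′ on the strand of the gene, and capitals mark GC boxes, GGGCGG on either strand.
Bdh1: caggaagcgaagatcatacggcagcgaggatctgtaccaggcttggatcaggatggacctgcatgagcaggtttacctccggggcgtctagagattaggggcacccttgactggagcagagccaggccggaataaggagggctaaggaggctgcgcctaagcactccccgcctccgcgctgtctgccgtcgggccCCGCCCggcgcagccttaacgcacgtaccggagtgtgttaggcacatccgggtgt
Oxct1: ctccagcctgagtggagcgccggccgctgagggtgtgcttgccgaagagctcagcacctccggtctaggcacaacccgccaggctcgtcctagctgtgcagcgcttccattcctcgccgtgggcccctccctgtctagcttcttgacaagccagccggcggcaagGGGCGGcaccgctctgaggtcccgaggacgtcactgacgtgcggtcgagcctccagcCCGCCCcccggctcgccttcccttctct
Acat1: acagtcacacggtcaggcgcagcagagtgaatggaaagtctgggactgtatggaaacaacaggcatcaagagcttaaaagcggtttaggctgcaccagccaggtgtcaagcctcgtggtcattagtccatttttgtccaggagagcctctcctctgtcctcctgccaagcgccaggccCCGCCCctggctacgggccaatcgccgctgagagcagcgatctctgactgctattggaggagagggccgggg

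Bdh1 and Acat1 each held 1 GC box and Oxct1 held 2, against 32.4% of 27457 rat promoter windows of this length with at least 1. This motif was chosen after the sequences were seen. The direct repeat of AGGTCA with 1 base between (0.0546% of windows), the estrogen-related receptor element TNAAGGTCA (1% of windows) and the E-box CAGCTG (11.9% of windows), searched on both strands, were found in none of the 3 windows. For Bdh1, the RT-qPCR assay designed for rats in the study used the probe ctgccaccagcctctatagccc between the forward primer tggagcctggcaacttcatag and the reverse primer gcagctcatcccacatcttc, and its readings were not used here.

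At 6 months the 3 genes differed in how they were spread over the muscles. Bdh1 was concentrated in the diaphragm and soleus, Oxct1 was graded over the 4 muscles, and Acat1 was nearly even. Levels are CPM, counts divided by scaled library size, on one scale for all libraries, and because they are not divided by transcript length they are compared between muscles and ages but not between genes. Differences between muscles were tested in one limma-voom fit of all libraries, and a gene was called where the Benjamini-Hochberg adjusted p was under 0.05 and the difference over 1.5-fold.

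Bdh1 at 6 months ranged from 28.3 to 38.7 CPM with a median of 34.8 in the 12 diaphragm libraries. It ranged from 22.0 to 36.1 with a median of 30.7 in the 12 soleus libraries. The diaphragm and soleus overlapped, and their difference of -0.20 on the log2 scale (soleus minus diaphragm, 95% interval -0.44 to 0.03) did not pass the test (adjusted p = 0.13). In the tibialis anterior Bdh1 ranged from 1.23 to 3.32 CPM with a median of 2.68, and in the gastrocnemius from 1.75 to 3.09 with a median of 2.28. These low levels rested on 39 to 169 and 47 to 119 reads per library, and the difference between both fast muscles was 0.06 (95% interval -0.53 to 0.65, adjusted p = 0.90). No library of either fast muscle reached the lowest diaphragm or soleus library, and the tibialis anterior minus diaphragm difference was -3.85 ± 0.22 (SE, adjusted p = 7.0e-46).

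Oxct1 at 6 months stood in the order diaphragm, soleus, tibialis anterior, gastrocnemius. Its medians were 1623 CPM (1448 to 1768), 1287 (1140 to 1570), 770 (686 to 836) and 610 (379 to 751). Each muscle differed from its neighbor in this order at an adjusted p under the threshold, but the difference of soleus minus diaphragm (-0.32 ± 0.09, adjusted p = 0.0011) and of tibialis anterior minus gastrocnemius (0.36 ± 0.09, adjusted p = 0.00024) stayed under 1.5-fold. The tibialis anterior minus soleus difference of -0.75 ± 0.09 was called (adjusted p = 2.3e-15). Oxct1 thus separated slow and mixed from fast muscles with a smaller difference on the log2 scale than Bdh1 did.

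Acat1 had medians of 282 CPM in the gastrocnemius, 272 in the soleus, 257 in the diaphragm and 247 in the tibialis anterior, and all 4 ranges overlapped. The gastrocnemius minus diaphragm difference of Acat1 was 0.13 (adjusted p = 0.059) and turned to -0.31 with total-count scaling. None of the 6 muscle pairs was called for Acat1. Of the 6 pairs, 4 were called for Bdh1 and 4 for Oxct1, each of them a slow or mixed muscle against a fast one. The share of all 12784 genes called at 6 months was 37.3% for gastrocnemius minus diaphragm, 23.9% for soleus minus diaphragm, 35.1% for tibialis anterior minus diaphragm, 45.4% for soleus minus gastrocnemius, 17.3% for tibialis anterior minus gastrocnemius and 42.9% for tibialis anterior minus soleus, so a call between slow and fast muscle was common. Comparisons of the gastrocnemius with other muscles cannot be told apart from its library numbering, which forms a series of its own in the labels.

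**Figure D1:**
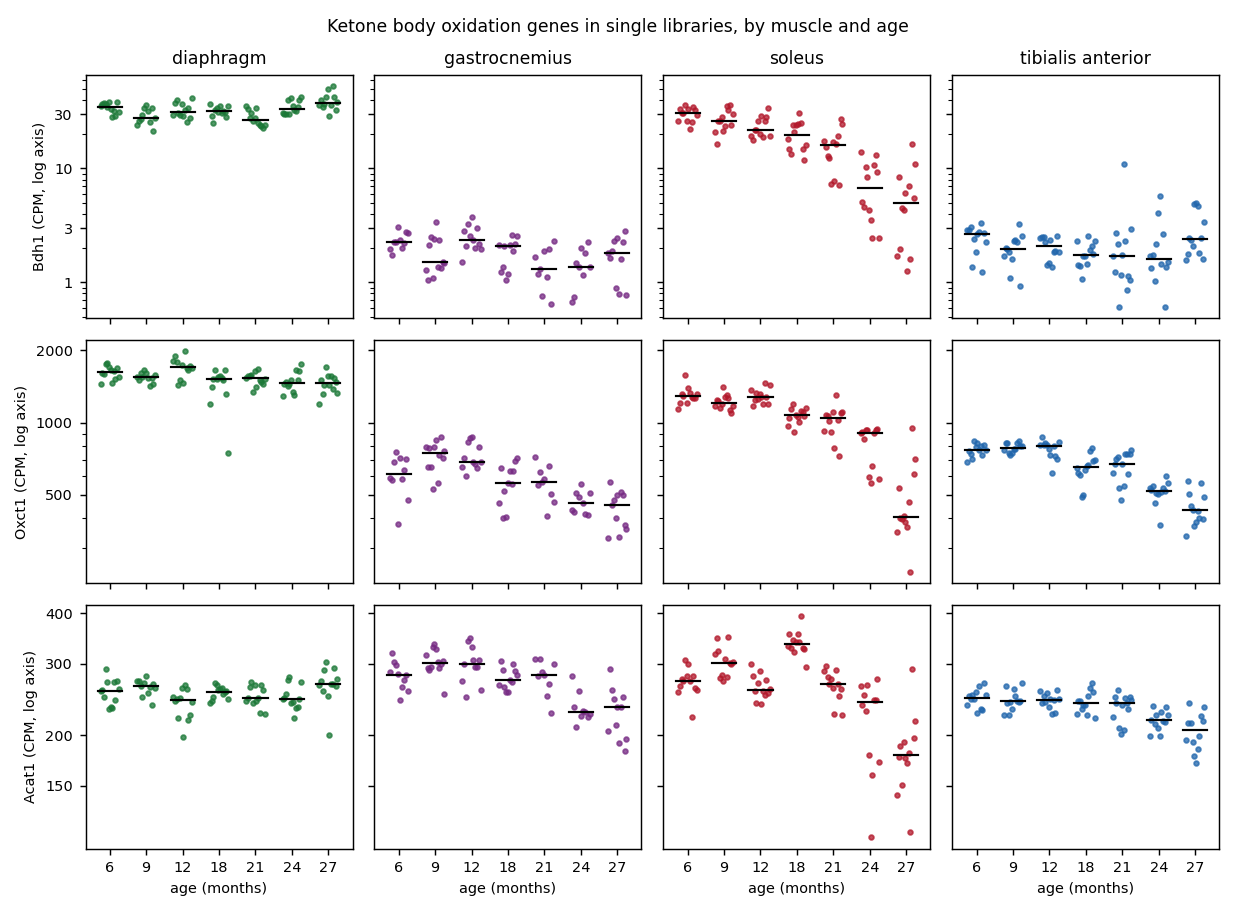
Levels of Bdh1, Oxct1 and Acat1 (CPM, logarithmic axis) in every library, by age in months (horizontal axis) and muscle (columns), with points for libraries and black bars for group medians. In the soleus Bdh1 went from a median of 30.7 CPM at 6 months to 5.00 at 27 months and Oxct1 from 1287 to 405, while the diaphragm stayed near its 6-month level.

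With age the soleus lost most of its Bdh1 and Oxct1 transcripts. At 27 months Bdh1 stood at 14.5% and Oxct1 at 35.6% of the 6-month level, and Acat1 at 67.1%, with no overlap with 6 months for Bdh1 and Oxct1. Changes come from a limma-voom fit of each muscle with age as a factor, every age is compared with the same 6-month libraries, and the call rule is the one above. In bulk muscle, fewer cells or fibers of a type and less RNA per cell cannot be told apart.

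Bdh1 in the soleus moved down over the whole series of ages. Its 12 libraries ranged from 22.0 to 36.1 CPM at 6 months (median 30.7), from 16.4 to 35.8 at 9 months (26.2), from 17.8 to 33.7 at 12 months (21.9), from 11.9 to 30.5 at 18 months (19.5), from 7.20 to 27.0 at 21 months (15.98), from 2.43 to 13.9 at 24 months (6.79) and from 1.26 to 16.3 at 27 months (5.00). The highest library at 24 and at 27 months was below the lowest at 6 months. The log2 change was -0.64 ± 0.18 (SE) at 18 months (adjusted p = 0.0041), -1.03 ± 0.19 at 21 months (adjusted p = 4.8e-05), -2.24 ± 0.24 at 24 months (adjusted p = 6.0e-12) and -2.78 ± 0.26 at 27 months (adjusted p = 1.0e-15). All 4 were called, and those of 9 and 12 months (-0.20 and -0.36) were not. The Bdh1 call at 18 months was lost with DESeq2 (adjusted p = 0.062) and edgeR (adjusted p = 0.056). The spread between animals widened as well, from an SD of 0.21 log2 CPM at 6 months to 0.91 at 24 and 1.18 at 27 months.

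Oxct1 in the soleus held its level to 12 months and was lowest at 27 months. It ranged from 1140 to 1570 CPM at 6 months (median 1287), from 1175 to 1462 at 12 months (1278), from 912 to 1192 at 18 months (1070), from 728 to 1298 at 21 months (1046), from 563 to 937 at 24 months (908) and from 238 to 945 at 27 months (405). No library of 24 or 27 months reached the lowest of 6 months. The change was -0.28 ± 0.10 at 18 months (adjusted p = 0.040) and -0.37 ± 0.10 at 21 months (adjusted p = 0.0099), both under 1.5-fold. Oxct1 was called at 24 months (-0.69 ± 0.10, adjusted p = 1.7e-07) and at 27 months (-1.49 ± 0.10, adjusted p = 2.1e-21).

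Acat1 in the soleus was not called at any age. Its range was 222 to 306 CPM at 6 months (median 272), 295 to 393 at 18 months (336), 112 to 274 at 24 months (241) and 115 to 292 at 27 months (179). At 18 months 11 of 12 libraries lay above every 6-month library (0.32 ± 0.09, adjusted p = 0.0026), and at 27 months 11 of 12 lay below every one. The 27-month change of -0.58 ± 0.09 (adjusted p = 1.8e-08) stopped just short of 1.5-fold, which is 0.58 on the log2 scale, and it passed that limit in 7 of 24 fits that left out 1 library. At 27 months Acat1 was the least changed of the 3 genes in the soleus by value.

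Among the genes called lower in the soleus at 27 months, Bdh1 ranked 56th and Oxct1 130th by size of change. The share of genes called in the soleus against 6 months was 0.123% at 9 months, 0.353% at 12, 2.84% at 18, 2.61% at 21, 6.51% at 24 and 15% at 27 months. At 27 months 9.21% were called higher and 5.78% lower. Of the 3 ketone genes 1 was called at 18 and at 21 months and 2 at 24 and 27 months, all of them lower.

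**Figure D2:**
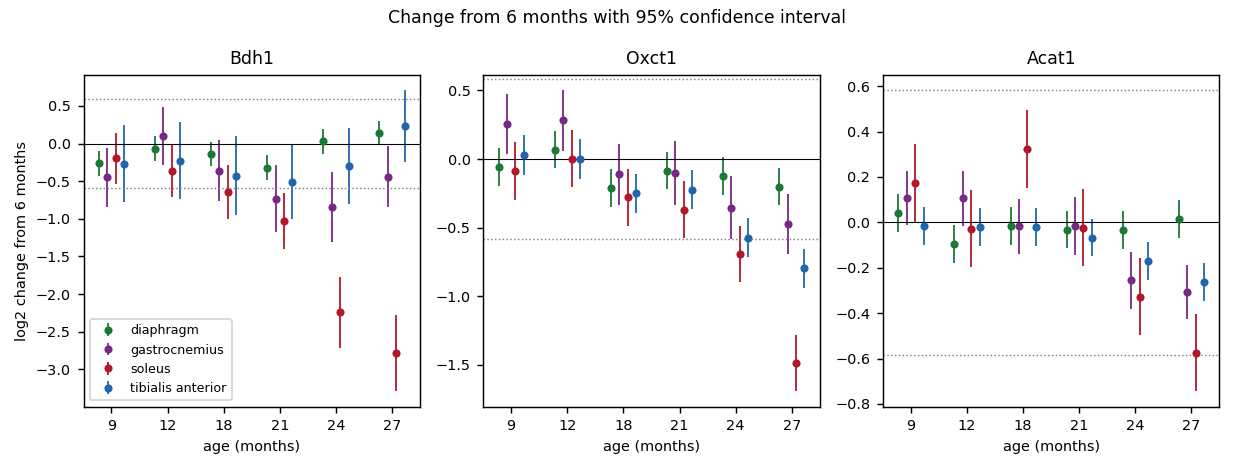
Log2 change of Bdh1, Oxct1 and Acat1 from 6 months (vertical axis) at each later age in months (horizontal axis), with points for the 4 muscles, bars for 95% confidence intervals and dotted lines at 1.5-fold. The soleus reached -2.78 for Bdh1 and -1.49 for Oxct1 at 27 months, and the diaphragm stayed within 1.5-fold at every age for each gene.

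In the tibialis anterior Oxct1 was the one gene of the 3 that was called. Oxct1 ranged from 686 to 836 CPM at 6 months (median 770), from 373 to 602 at 24 months (521) and from 337 to 571 at 27 months (431), with no overlap with 6 months at either age. The change was -0.57 ± 0.07 at 24 months (adjusted p = 1.9e-10), under 1.5-fold, and -0.80 ± 0.07 at 27 months (adjusted p = 4.6e-17), which was called, although with total-count scaling it was -0.48 and was not called. Acat1 was lower at 27 months by value (-0.26 ± 0.04, adjusted p = 5.7e-08) with a median of 206 CPM against 247, and with total-count scaling its sign turned (0.06, adjusted p = 0.18). Bdh1 ranged from 1.57 to 4.93 CPM at 27 months (median 2.42) against 1.23 to 3.32 (2.68), and its change of 0.24 ± 0.24 did not pass the test (95% interval -0.24 to 0.72, adjusted p = 0.37). One library of 21 months held 10.9 CPM of Bdh1 where the next highest held 2.93, and without it the 21-month change went from -0.51 (adjusted p = 0.12) to -0.72 and was called (adjusted p = 0.019). That library was chosen after seeing the data. The share of genes called in the tibialis anterior was 0.00851% at 9 months, 0.196% at 12, 5.45% at 18, 6.47% at 21, 14.5% at 24 and 27.6% at 27 months, of which 17.2% were higher and 10.4% lower at 27 months.

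In the gastrocnemius Bdh1 was called lower at 21 and 24 months and not at 27. It ranged from 1.75 to 3.09 CPM at 6 months (median 2.28), from 0.649 to 2.33 at 21 months (1.30), from 0.671 to 2.26 at 24 months (1.38) and from 0.767 to 2.85 at 27 months (1.83), on 15 to 119 reads a library, and the groups overlapped at every age. The change was -0.73 ± 0.23 at 21 months (adjusted p = 0.015), -0.84 ± 0.24 at 24 months (adjusted p = 0.0018) and -0.44 ± 0.21 at 27 months (adjusted p = 0.057). Both calls were lost with Bonferroni adjustment. Oxct1 had a median of 454 CPM (lowest 331) at 27 months against 610 (lowest 379) at 6 months, a change of -0.47 ± 0.11 (adjusted p = 0.00017) that stayed under 1.5-fold. Acat1 had a median of 234 CPM against 282, a change of -0.31 ± 0.06 (adjusted p = 1.1e-05), also under 1.5-fold. With total-count scaling both changes lost the adjusted p (Oxct1 -0.19, adjusted p = 0.15, and Acat1 -0.02, adjusted p = 0.69). The share of genes called in the gastrocnemius was 0.143% at 9 months, 0.885% at 12, 4.32% at 18, 5.81% at 21, 18.8% at 24 and 22.8% at 27 months, with 15.1% higher and 7.76% lower at 27 months.

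In the diaphragm none of the 3 genes was called at any age. Bdh1 ranged from 29.1 to 53.4 CPM at 27 months (median 37.7) against 28.3 to 38.7 (34.8) at 6 months, a change of 0.14 ± 0.08 (95% interval -0.02 to 0.30, adjusted p = 0.15). Its lowest median was 26.7 CPM at 21 months (-0.32 ± 0.08, adjusted p = 0.0081), under 1.5-fold. Oxct1 was at 1457 CPM (1190 to 1708) against 1623 (1448 to 1768), a change of -0.20 ± 0.07 (adjusted p = 0.013). Acat1 was at 268 CPM (200 to 303) against 257 (232 to 291), a change of 0.02 ± 0.04 (95% interval -0.07 to 0.10, adjusted p = 0.79). The diaphragm intervals at 27 months thus all lay inside 1.5-fold. The share of genes called in the diaphragm was 0.108% at 9 months, 0.532% at 12, 2.25% at 18, 1.68% at 21, 2.68% at 24 and 7.52% at 27 months, with 3.27% higher and 4.25% lower at 27 months.

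The course over the 7 ages was described by comparing a null, a linear and a logistic curve with the Bayesian information criterion (BIC), where a trend needed a gain of over 6 on the null curve. A falling late logistic course, with an inflection after 21 months, fitted Bdh1, Oxct1 and Acat1 in the soleus, Oxct1 and Acat1 in the tibialis anterior and Acat1 in the gastrocnemius. With total-count scaling the 3 soleus courses stayed late and falling, Oxct1 in the tibialis anterior became linear, and Acat1 had no trend in the tibialis anterior or gastrocnemius. The inflection lay at 23.25 months for Bdh1 and 23.5 months for Acat1 in the soleus. For Oxct1 in the soleus it lay at 27 months, the end of the range searched, so that no later plateau was seen. A falling linear course fitted Bdh1 and Oxct1 in the gastrocnemius and Oxct1 in the diaphragm. That of Oxct1 in the diaphragm was lost in all 4 alternatives tried, and that of Bdh1 in the gastrocnemius with total-count scaling and at a BIC gain of 10. No trend was found for Acat1 in the diaphragm or for Bdh1 in the tibialis anterior. Bdh1 in the diaphragm had none either, but was late and rising with total-count scaling and without the third series of library numbers. That series held every 12-month library of the diaphragm, soleus and tibialis anterior. In the diaphragm and soleus all 6-month libraries were in another series, so 12 against 6 months cannot be told apart from it there.

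The difference between muscles in the 6 to 27 month change was tested directly in the fit of all libraries. The soleus differed from all 3 other muscles for Bdh1 and Oxct1. For Bdh1 the soleus change was lower by -2.98 ± 0.21 than that of the diaphragm (adjusted p = 1.0e-31) and by -2.36 ± 0.37 than that of the gastrocnemius (adjusted p = 1.9e-08), and the tibialis anterior change exceeded it by 3.03 ± 0.33 (adjusted p = 5.8e-16). For Oxct1 the soleus minus diaphragm difference was -1.35 ± 0.13 (adjusted p = 7.8e-20), soleus minus gastrocnemius -1.03 ± 0.13 (adjusted p = 7.0e-13) and tibialis anterior minus soleus 0.70 ± 0.12 (adjusted p = 2.9e-07).

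Oxct1 also changed more in the tibialis anterior than in the diaphragm (-0.65 ± 0.12, adjusted p = 2.6e-06), although with total-count scaling this difference was -0.32 and was not called. For Acat1 the soleus minus diaphragm difference alone was called (-0.65 ± 0.09, adjusted p = 3.4e-11), and with total-count scaling it was -0.48 and was not called. The share of all genes called for the same differences was 21.6% for gastrocnemius minus diaphragm, 11.9% for soleus minus diaphragm, 20.3% for tibialis anterior minus diaphragm, 14.5% for soleus minus gastrocnemius, 7.32% for tibialis anterior minus gastrocnemius and 15.8% for tibialis anterior minus soleus. The pairs share muscles, so the differences are not independent of each other.

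The balance between the 3 transcripts was then taken within each library, where the scaling between libraries drops out. In the soleus the 3 genes fell by unequal amounts. Soleus Bdh1 counts were 1.67% to 2.75% of Oxct1 counts at 6 months (median 2.32%) and 0.346% to 1.73% at 27 months (median 1.09%), and 11 of 12 libraries at 27 months lay below every 6-month library. The mean ratio moved by -1.26 on the log2 scale (two-sided permutation test with 100000 resamples, p = 1e-05, the smallest these can give, adjusted p = 3e-05 over 12 tests). Soleus Acat1 counts were 17.3% to 23.2% of Oxct1 counts at 6 months and 30.7% to 48.3% at 27 months, with no overlap, a rise of 0.92 (permutation test, adjusted p = 3e-05). Soleus Bdh1 counts were 8.12% to 12.6% of Acat1 counts at 6 months and 0.746% to 5.59% at 27 months, again with no overlap, a change of -2.18 (permutation test, adjusted p = 3e-05).

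In the other muscles the ratios moved differently. The Bdh1 to Oxct1 ratio was higher at 27 months in the tibialis anterior (by 0.95 between the means of log2 ratios and 0.57 between the medians of 0.331% and 0.492%, permutation test, adjusted p = 0.00031 for the means and 0.0026 for the medians) and in the diaphragm (0.34, from 2.07% to 2.63%, adjusted p = 0.00054 by the same permutation test), with overlapping groups. The Acat1 to Oxct1 ratio was higher in the tibialis anterior (0.54, from 32.6% to 47.6%, no overlap, permutation test, adjusted p = 3e-05) and in the diaphragm (0.22, from 15.99% to 18.6%, permutation test, adjusted p = 0.0025). No ratio passed in the gastrocnemius (adjusted p 0.18 to 0.84, permutation test). Since the genes differ in length, only the change of a ratio is read here and not its size.

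**Figure D3:**
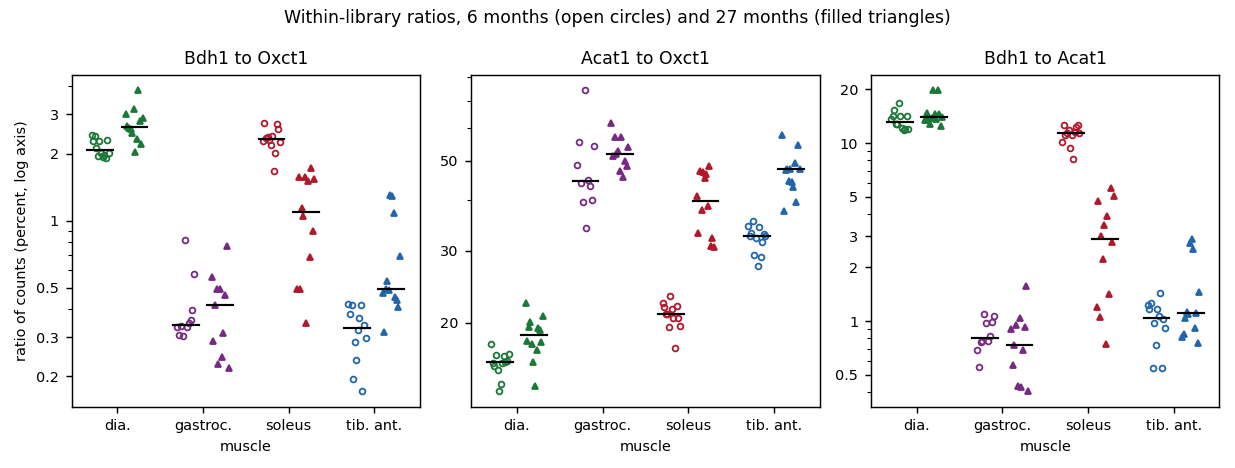
Ratios of the read counts of 2 genes within each library (percent, logarithmic axis) at 6 months (open circles) and 27 months (filled triangles) in the 4 muscles (horizontal axis), with black bars for medians. In the soleus Bdh1 went from a median of 2.32% to 1.09% of Oxct1, and Acat1 from 21.0% to 39.8% of Oxct1.

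The soleus libraries also differed in their markers of fiber type. Slow fiber markers (8 genes, among them Myh7 and Tnnt1) summed to 65598 to 82619 CPM at 6 months (median 72674), 40087 to 77990 at 24 months (67603) and 26607 to 83305 at 27 months (46167), and 2 of 8 were called lower at 27 months, with a median change of -0.39. Most of this sum was Myh7 (medians of 47514 CPM at 6 and 30539 at 27 months) and Atp2a2 (14503 and 8038). The median of Tnnt1 went from 2335 to 2109 CPM. The fast fiber markers (8 genes, among them Myh4 and Tnnt3) summed to 591 to 2114 CPM at 6 months and 1366 to 7337 at 27 months, and 8 of 8 were called higher. No marker of either list was absent from the files.

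Library by library, low values of the ketone genes and of the slow markers stood in the same animals. At 24 months the 4 libraries with the lowest slow marker sums (40087, 45768, 49508 and 50231 CPM) held 563, 659, 594 and 582 CPM of Oxct1. The other 8 libraries of 24 months, with slow sums of 64538 to 77990 CPM, held 854 to 937 CPM of Oxct1. In those 4 libraries Acat1 was at 112, 159, 179 and 172 CPM, and in the other 8 it was at 229 to 274, inside its 6-month range. Bdh1 was at 3.51, 2.43, 4.36 and 2.44 CPM in the same 4 and at 4.55 to 13.9 in the other 8, below every 6-month library in both cases.

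At 27 months replicate 9 held the highest slow marker sum of its age, 83305 CPM. It also held the most Bdh1 (16.3 CPM), Oxct1 (945 CPM) and Acat1 (292 CPM) of that age, and its Bdh1 and Oxct1 were still below the lowest 6-month values of 22.0 and 1140. Within ages, over the 84 soleus libraries, deviations of the slow marker sum had a Pearson r of 0.63 with Bdh1, 0.81 with Oxct1 and 0.88 with Acat1, given as descriptions of libraries that share depth and scaling. With a slow marker score of each library as a covariate, the 27-month soleus change was -2.12 for Bdh1 (adjusted p = 8.5e-09), -1.05 for Oxct1 (adjusted p = 1.7e-15) and -0.08 for Acat1 (adjusted p = 0.16), and the 18-month change of Acat1 was 0.03 where it was 0.32 without the score. Bdh1 and Oxct1 were still called in that fit, and the Oxct1 call at 24 months was lost (-0.49).

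**Figure D4:**
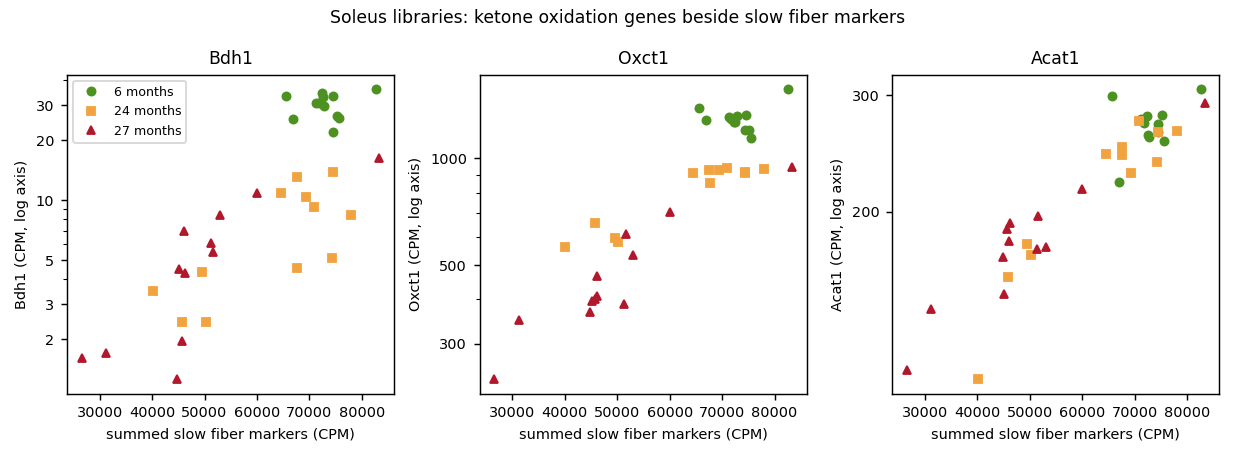
Bdh1, Oxct1 and Acat1 (CPM, logarithmic axes) against the summed slow fiber markers (CPM, horizontal axis) in the soleus libraries of 6, 24 and 27 months, 1 point per library. The 4 libraries of 24 months with slow sums of 40087 to 50231 CPM hold 563 to 659 CPM of Oxct1, while the Bdh1 of all 24 and 27 month libraries lies below the 6-month libraries.

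Markers of other tissues were read beside these values. Liver markers (10 genes, among them Alb and Apoa1) summed to 6.99 to 1634 CPM in the 6-month soleus (median 110) and to 0.976 to 2161 at 27 months (median 2.06), and 6 of 10 were called lower. The 6-month library with the lowest liver sum (6.99 CPM) held 36.1 CPM of Bdh1 and the one with the highest (1634 CPM) held 29.6, and with the liver score as a covariate the soleus Bdh1 change at 27 months was -2.68 and was called. In the soleus adipocyte markers were called higher for 5 of 6 genes (sums of 36.9 to 189 CPM at 6 and 167 to 461 at 27 months), macrophage markers for 2 of 7 (152 to 244 and 244 to 333 CPM), endothelial markers were called lower for 1 of 5 (316 to 387 and 224 to 334 CPM), and no Schwann cell marker of 4 was called (20.0 to 30.1 and 17.4 to 29.1 CPM). In the tibialis anterior, where Oxct1 fell, slow fiber markers were called lower for 3 of 8, fast fiber markers for 4 of 8 and endothelial markers for 1 of 5 genes, and adipocyte markers were called higher for 5 of 6 (median change 1.63) and macrophage markers for 7 of 7 (1.44). In the gastrocnemius at 27 months fast fiber markers were called lower for 4 of 8 and endothelial markers for 1 of 5, adipocyte markers higher for 5 of 6 and macrophage markers for 7 of 7, Schwann cell markers higher for 1 and lower for 2 of 4, and no slow fiber marker of 8 was called. For scale, 9.21% of all genes passed as higher at 27 months in the soleus, 15.1% in the gastrocnemius and 17.2% in the tibialis anterior. Lower ones made up 5.78%, 7.76% and 10.4% in that order, so 1 lower call among 5 endothelial genes does not stand out. The part of these markers in the changes was not tested. The scores used as covariates come from the same libraries and differ with age in the soleus, so those fits cannot divide a change into parts.

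The other genes of ketone metabolism were described from lists of related enzymes, transporters, receptors and regulators. At 27 months, of 5 transporters tested, 1 was called lower in each muscle, and 2 were called higher in the gastrocnemius and 2 in the tibialis anterior. Of 5 regulators tested, 2 were called lower in each limb muscle and none higher. These counts stand beside 4.25% to 10.4% of all genes called lower at 27 months, and beside 15.1% called higher in the gastrocnemius and 17.2% in the tibialis anterior. Oxct2a, the testis form of the transferase, Slc5a8, Ffar3 and Fgf21 had too few reads to be tested in any muscle. Bdh2, Aacs and Acat2, cytosolic enzymes of acetoacetate and acetoacetyl-CoA, were tested and not called in any muscle (changes of -0.45 to 0.48).

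Among transporters, Slc16a1 (MCT1), which carries lactate and ketone bodies, fell in the soleus. Its median there was 190 CPM at 6 months (178 to 249) and 103 at 27 months (73.9 to 217), a change of -0.78 ± 0.11 (adjusted p = 3.8e-09), and with the slow marker score as a covariate it was -0.28 and was not called. Slc16a1 was lower by less than 1.5-fold in the gastrocnemius (-0.49) and tibialis anterior (-0.52) and was 0.03 in the diaphragm. Slc16a3 (MCT4), the lactate exporter of glycolytic fibers, fell in the diaphragm (-1.14 ± 0.18), gastrocnemius (-1.57 ± 0.21) and tibialis anterior (-1.63 ± 0.23). In the tibialis anterior Slc16a3 went from 297 to 364 CPM at 6 months to 23.2 to 278 at 27 months, without overlap.

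Slc16a6 (MCT7), which exports ketone bodies from hepatocytes, rose in the gastrocnemius (0.90 ± 0.13) and tibialis anterior (0.90 ± 0.13). Slc16a7 (MCT2) rose in the gastrocnemius (0.84 ± 0.21). Bsg, the chaperone of MCT1 and MCT4, rose in the tibialis anterior (0.70 ± 0.06). The receptor Hcar2, listed as Niacr1, was called higher in the soleus (1.56 ± 0.48, adjusted p = 0.0043) on no more than 49 reads in a library. The median change over the 5 transporters tested for the soleus was -0.43 and for the tibialis anterior 0.36, against 0.019 and 0.015 over all genes.

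The regulators of oxidative metabolism were called lower in the limb muscles where they were called. Esrra, an orphan nuclear receptor that drives mitochondrial genes, fell in the soleus (-0.82 ± 0.09, medians 28.5 and 16.7 CPM, no overlap), gastrocnemius (-0.79 ± 0.13) and tibialis anterior (-0.64 ± 0.10). Ppara, the fatty acid receptor that induces ketogenic and oxidative genes, fell in the soleus (-0.59 ± 0.09), Ppard in the gastrocnemius (-0.61 ± 0.08) and the coactivator Ppargc1a in the tibialis anterior (-0.59 ± 0.07). The calls of Ppara and Ppargc1a sat at the edge of 1.5-fold and were lost with edgeR (-0.54 and -0.56). Total-count scaling kept the direction of these falls and left the Esrra call in the soleus as the only one of the 6. With the slow marker score as a covariate the soleus calls of Esrra (-0.39), Ppara (-0.29) and Niacr1 (1.01, adjusted p = 0.16) were lost. No regulator was called in the diaphragm.

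**Figure D5:**
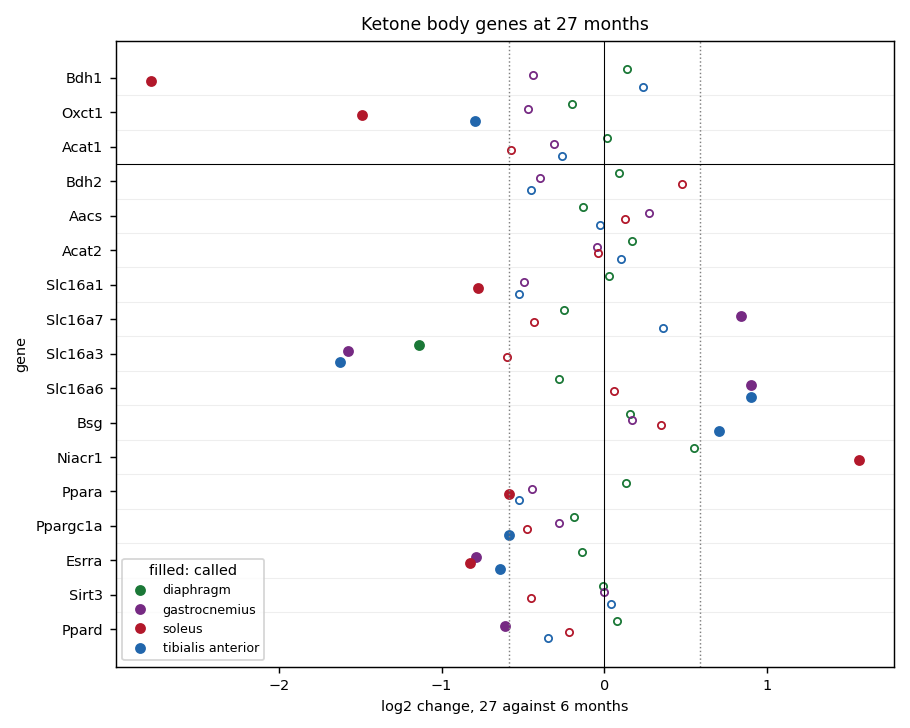
Log2 change at 27 against 6 months (horizontal axis) of Bdh1, Oxct1, Acat1 (above the line) and the related enzymes, transporters, receptor and regulators tested (below it), colored by muscle, with filled points for calls and dotted lines at 1.5-fold. Bdh1 and Oxct1 in the soleus lie at -2.78 and -1.49, and Slc16a1 in the soleus at -0.78.

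The pathways that ACAT1 feeds or competes with were read in the same way. Of 17 citric acid cycle genes, 4 were called lower in the soleus, 4 in the gastrocnemius, 3 in the tibialis anterior and 1 in the diaphragm, with median changes of -0.47, -0.43, -0.42 and 0.02. The shares of all genes called lower were 5.78%, 7.76%, 10.4% and 4.25% in the same order, and the 1 of 17 in the diaphragm is near that share. In the soleus they included Sucla2 (-0.69 ± 0.07), a subunit of the enzyme that uses succinyl-CoA, Sdhb (-0.66 ± 0.07) and Sdhc (-0.61 ± 0.07), subunits of succinate dehydrogenase. Sucla2 was also lower in the tibialis anterior (-0.71 ± 0.08) and diaphragm (-0.61 ± 0.09). Of 15 fatty acid oxidation genes, 7 were called lower in the soleus (median change -0.50), among them Etfa (-0.78 ± 0.08), Cpt2 (-0.73 ± 0.11), Hadh (-0.72 ± 0.08) and Acadm (-0.69 ± 0.10). In the gastrocnemius and tibialis anterior the one call was Decr1, an enzyme of unsaturated fatty acids, which rose (0.60 ± 0.07 and 0.92 ± 0.07). With 15.1% and 17.2% of all genes called higher in these muscles, 1 of 15 does not stand out. By value the soleus fall of Bdh1 and Oxct1 was larger than that of every citric acid cycle or fatty acid oxidation gene named here.

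Across the 28 group means, Bdh1 and Oxct1 had similar patterns (Pearson r = 0.91), whereas Acat1 had an r of 0.24 with Bdh1 and 0.39 with Oxct1. Of 10411 genes compared over the 28 groups, those most like Bdh1 were Plce1 (0.976), Ros1 (0.973), Mark1 (0.971), Nnt (0.970) and Pitpnm2 (0.970). Most like Oxct1 were Slc16a1 (0.966), Cxcl12 (0.959), Grip2 (0.947), Sdc3 (0.945) and Acsl1 (0.938). Most like Acat1 were Lamtor1 (0.852), Mlxipl (0.839), Mfn2 (0.835), Phb2 (0.835) and Gstk1 (0.821). The group means share libraries and differ mostly by muscle for Bdh1 and Oxct1, so these values are descriptions.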

How the data were processed

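Per the labels and the study's methods, the authors took RNA from muscle kept in RNAlater, removed ribosomal RNA, sequenced strand-specific libraries and deposited raw counts per gene, not normalized, made with ArrayStudio on an older rat genome build with an in-house gene model. Totals were 17.6 to 85.3 M counts per library (median 31.9 M). Here lines of the same symbol were summed, genes were kept with edgeR 4.0.16 filterByExpr (minimum count 10, minimum total 15), scaled by TMM and tested with limma 3.58.1 voom (R 4.3.3), 1 fit per muscle with age as a factor and 1 fit of the 28 groups for differences between muscles. Log2 levels used a prior count of 0.5. The code was tested on simulated data. Alternatives were DESeq2 1.42.0, edgeR, other scalings, filters, weights, covariates and left-out libraries. The rule for named genes was the 3 enzymes, called genes of the ketone lists, up to 4 genes per muscle of the 2 fuel pathway lists by size of change, and the 5 most alike genes per enzyme. Some listed genes are not reported here. Genes and lists were chosen with earlier results of these data known. The intervals given come from the limma fits and their standard errors, and so reflect the spread between libraries. Within a muscle the p-values rest on libraries of separate animals. Those for differences between muscles treat all libraries as independent and take no account of animals shared by muscles.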

Additional observations from a re-analysis of the deposited data

Results flagged for a closer look

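The change from 6 to 27 months differed between muscles for all 3 genes by the test of the difference itself, on the log2 scale in the fit of all libraries. For Bdh1 the difference was -2.98 for soleus minus diaphragm, where the mean went from 4.90 to 2.13 log2 CPM in the soleus and from 5.10 to 5.28 in the diaphragm. It was -2.36 for soleus minus gastrocnemius (1.22 to 0.70 in the gastrocnemius) and 3.03 for tibialis anterior minus soleus (1.25 to 1.39 in the tibialis anterior). For Oxct1 the difference was -1.35 for soleus minus diaphragm, -1.03 for soleus minus gastrocnemius, 0.70 for tibialis anterior minus soleus and -0.65 for tibialis anterior minus diaphragm. For Acat1 it was -0.65 for soleus minus diaphragm, where the mean went from 8.07 to 7.48 in the soleus and from 8.00 to 8.05 in the diaphragm. In 12 sets of levels or ratios from the smaller gastrocnemius groups, the ones with few enough libraries to be tested for a single library far from the rest, none was found; larger groups were not tested.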

How the results depend on the processing

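The soleus calls of Bdh1 and Oxct1 at 27 months held in every setting tried. With replicate number in per-muscle fits Bdh1 was -2.70 and Oxct1 -1.49 there, and no call of the 3 genes changed. Ppara (soleus) and Ppargc1a (tibialis anterior), both -0.58, fell under 1.5-fold. Same-numbered libraries of different muscles at one age had mean correlations of 0.06 to 0.18, and differently numbered ones -0.016 to -0.0048. For diaphragm and tibialis anterior 72.3% of same-numbered pairs passed 0.1 against 19.7% of the others, and for diaphragm and gastrocnemius 36.1% against 23.2%. As a block with age the numbers had a consensus of 0.0660. Some same-numbered libraries may thus share an animal. The labels do not state this, so the main tests between muscles did not pair samples and take no account of shared animals. Leaving out 1 library at a time gave 27-month changes of -2.94 to -2.62 for Bdh1 in the soleus, -0.52 to -0.36 in the gastrocnemius, 0.10 to 0.17 in the diaphragm and 0.14 to 0.30 in the tibialis anterior. It gave -1.59 to -1.41 for Oxct1 in the soleus, -0.84 to -0.76 in the tibialis anterior, -0.56 to -0.43 in the gastrocnemius and -0.23 to -0.17 in the diaphragm, and -0.64 to -0.52 for Acat1 in the soleus, -0.34 to -0.27 in the gastrocnemius, -0.28 to -0.24 in the tibialis anterior and -0.0054 to 0.049 in the diaphragm.

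Total-count scaling, under which the median of all genes at 27 months was 0.32 (gastrocnemius), 0.16 (soleus) or 0.34 (tibialis anterior), turned the sign of Acat1 in the diaphragm at 18 (0.0040) and 24 months (0.0039), in the gastrocnemius at 18 (0.072), 21 (0.116) and 24 months (0.013), at 21 months for the soleus (0.0016) and for the tibialis anterior at 9 (0.017), 18 (0.013), 21 (0.014), 24 (0.017) and 27 months (0.058). It also turned Acat1 at 6 months for gastrocnemius minus diaphragm (-0.31) and soleus minus gastrocnemius (0.35), its tibialis anterior minus diaphragm difference in change (0.0025), Etfa in the tibialis anterior (0.026), and Oxct1 in the gastrocnemius at 21 months (0.026) and in the tibialis anterior at 12 months (0.013). It ended the calls of Oxct1 in the tibialis anterior at 27 months (-0.48), of its difference from the diaphragm (-0.32) and of the Acat1 difference of soleus minus diaphragm (-0.48). Relative to the median of all genes, Oxct1 in the tibialis anterior was -0.82 in that scaling. The near-zero Oxct1 change in the tibialis anterior at 12 months was also positive with DESeq2 (0.0089), RLE size factors (0.0015), edgeR (0.0065), sample quality weights (0.013) and a fit of 6 and 12 months alone (0.0044), and Acat1 in the gastrocnemius at 21 months was 0.00039 in a fit of 6 and 21 months alone.
With the slow marker score as a covariate, the sign turned for Acat1 in the diaphragm at 27 (-0.051) and in the soleus at 12 (0.084) and 21 months (0.041). It also turned for Bdh1 in the gastrocnemius at 12 (-0.035) and the tibialis anterior at 24 months (0.030), and Oxct1 in the soleus at 24 months was -0.49. In that fit 1 ketone list gene was called in the soleus where 4 were without it, and it was none of those 4. Without a filter on low counts Acat1 in the soleus at 27 months was -0.585 and was called. With medians the gastrocnemius ratio of Bdh1 to Oxct1 moved by 0.298 on the log2 scale. Without the diaphragm library of 18 months that stood low, chosen after seeing the data, Acat1 there was 0.0013. The BIC gain, which had to pass 6 for a trend, with total-count scaling was 0.385 and -2.62 for Acat1 in the gastrocnemius and tibialis anterior, -0.670 for Bdh1 in the gastrocnemius, 3.18 for Oxct1 and 11.6 for Bdh1 in the diaphragm, so that the first 4 had no trend and the last rose late. For Oxct1 in the diaphragm it was 2.74 without the third number series and 2.02 without the 27-month libraries, which ended its trend, and for Bdh1 there 6.96 without that series, a rising trend. At a BIC difference of 10, Bdh1 in the gastrocnemius (6.85) and Oxct1 in the diaphragm (6.99) had no trend. Bonferroni adjustment left 538 of 905 calls in the diaphragm and 1083 of 1825 in the soleus, and 1 of 2 ketone list genes in the diaphragm, and the slow marker score left 1040 in the soleus. Bonferroni adjustment ended the calls of Bdh1 in the gastrocnemius and, as did DESeq2 (adjusted p = 0.062) and edgeR (adjusted p = 0.056), that of Bdh1 in the soleus at 18 months.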

Other observations

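One diaphragm library of 18 months (replicate 11) held 748 CPM of Oxct1 where the other libraries of that age held 1194 to 1661, and without it the 18-month change of Oxct1 went from -0.21 (adjusted p = 0.019) to -0.12 (adjusted p = 0.095). Bdh1 in the tibialis anterior deviated within ages with the slow marker sum (Pearson r = 0.51 over 85 libraries) and against the fast marker sum (r = -0.58), and in the gastrocnemius with the slow marker sum as well (r = 0.51 over 73 libraries). Oxct1 deviated against the macrophage marker sum in the diaphragm (r = -0.49 over 83 libraries), gastrocnemius (r = -0.50) and tibialis anterior (r = -0.43), and less in the soleus (r = -0.25). In the tibialis anterior its r was of like size with the endothelial sum (0.47) and the fast marker sum (0.42). These are descriptions of libraries that share depth and scaling.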
